A study of Populus yunnanensis and Populus davidiana with 24 samples.

Results

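Class III HD-ZIP genes encode a small family of plant transcription factors. The 8 poplar genes described here were taken by identifier from an expression table of 43836 gene models, a pair for each of 4 types. The REVOLUTA type is Potri.004G211300.v3.1 and Potri.009G014500.v3.1, and the CORONA type is Potri.001G188800.v3.1 and Potri.003G050100.v3.1. The HB8 type is Potri.006G237500.v3.1 and Potri.018G045100.v3.1, and the PHABULOSA type is Potri.011G098300.v3.1 and Potri.001G372300.v3.1. The table gave identifiers without gene names, so the type of each gene comes from the list of identifiers and was not checked against sequence. Expression was measured in stems of cuttings from P. davidiana and P. yunnanensis. The cuttings came from annual branches stripped of leaves and buds. Each species was sampled at 0, 48, 96 and 120 h with 3 replicates, which gave 8 groups and 24 libraries, and the labels name no treatment other than cutting. Per its title, the series is about how poplars differ in rooting.

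These proteins carry a homeodomain beside a leucine zipper and a lipid-binding START domain, and their messengers are cut by a conserved microRNA family. In Arabidopsis they set the upper side of the leaf, maintain the shoot meristem and pattern the vascular tissue, where they promote xylem on the inner side of the cambium. HB8 marks the cells that will become vascular strands and responds to auxin there. REVOLUTA acts in meristems, leaf polarity and the fibres of the stem, and CORONA and PHABULOSA share part of these roles. Poplar genes of the REVOLUTA and CORONA types have been studied in cambium and wood formation.

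Values are FPKM, the authors' count of fragments scaled to gene length and to mapped fragments. The 8 genes were all among the 24643 tested, each with 1 FPKM or more in 3 or more libraries. Totals per library were 716126 to 750136 FPKM in P. davidiana and 732813 to 790362 in P. yunnanensis. The number of reads is unknown. Ratios of low values put the depth at 0.619 to 0.837 of that of P. yunnanensis 96 h replicate 1 in P. davidiana, and at 0.831 to 1.10 in P. yunnanensis, so depth and species move together and their part in the species differences was not tested. Replicates were most spread in P. yunnanensis at 0 h, with a residual SD of 0.73 on the log2(FPKM + 1) scale against 0.41 to 0.55 in the other 7 groups. Replicate 2 of that group held the lowest value of the 3 replicates for 8 of the 8 genes, and for 51.1% of all tested genes. Neither trait was particular to it. P. yunnanensis 96 h replicate 1 was also the lowest for 8 of 8 genes, and for 49.4% of all tested genes. P. yunnanensis 120 h replicate 2 was the lowest for 54.2% of all tested genes. The 0 h library had the deepest median deviation from its group mean over the 8 genes, -1.09 against -0.65 in P. yunnanensis 96 h replicate 1. Calls that rest on P. yunnanensis at 0 h are therefore given with and without 0 h replicate 2. The labels do not tie replicates to separate plants, so a p-value here reflects only how far these libraries scatter, which can be technical. In whole stems, fewer cells of a type and less RNA per cell cannot be told apart.

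One HB8 gene led the family in P. davidiana at all times. In P. yunnanensis it did so in 3 of 12 libraries, all of them at 0 h. Potri.018G045100.v3.1 was the highest of the 8 genes in 12 of 12 P. davidiana libraries. In the other 9 P. yunnanensis libraries the highest was Potri.001G188800.v3.1 of the CORONA type (6) or Potri.009G014500.v3.1 of the REVOLUTA type (3). Its HB8 partner, Potri.006G237500.v3.1, was the lowest of the 8 in 8 of 12 P. davidiana libraries and 9 of 12 P. yunnanensis libraries. FPKM is scaled to gene length. Whether fragments of each gene align and are counted equally well in both species was not tested, so this order and the shares below describe FPKM only. The share of Potri.018G045100.v3.1 in the FPKM summed over the 8 genes averaged 47.9 ± 12.3%, 47.4 ± 11.2%, 51.1 ± 1.92% and 54.7 ± 3.42% at 0, 48, 96 and 120 h in P. davidiana (SD, n = 3 each). In P. yunnanensis it averaged 48.5 ± 18.8%, 16.9 ± 9.03%, 14.9 ± 5.11% and 7.88 ± 5.36% at the same times. The P. davidiana groups overlapped with 0 h at each time, while in P. yunnanensis the lowest share at 0 h, 29.0% in replicate 2, was above the highest share at any later time, 23.1%.

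**Figure D1:**
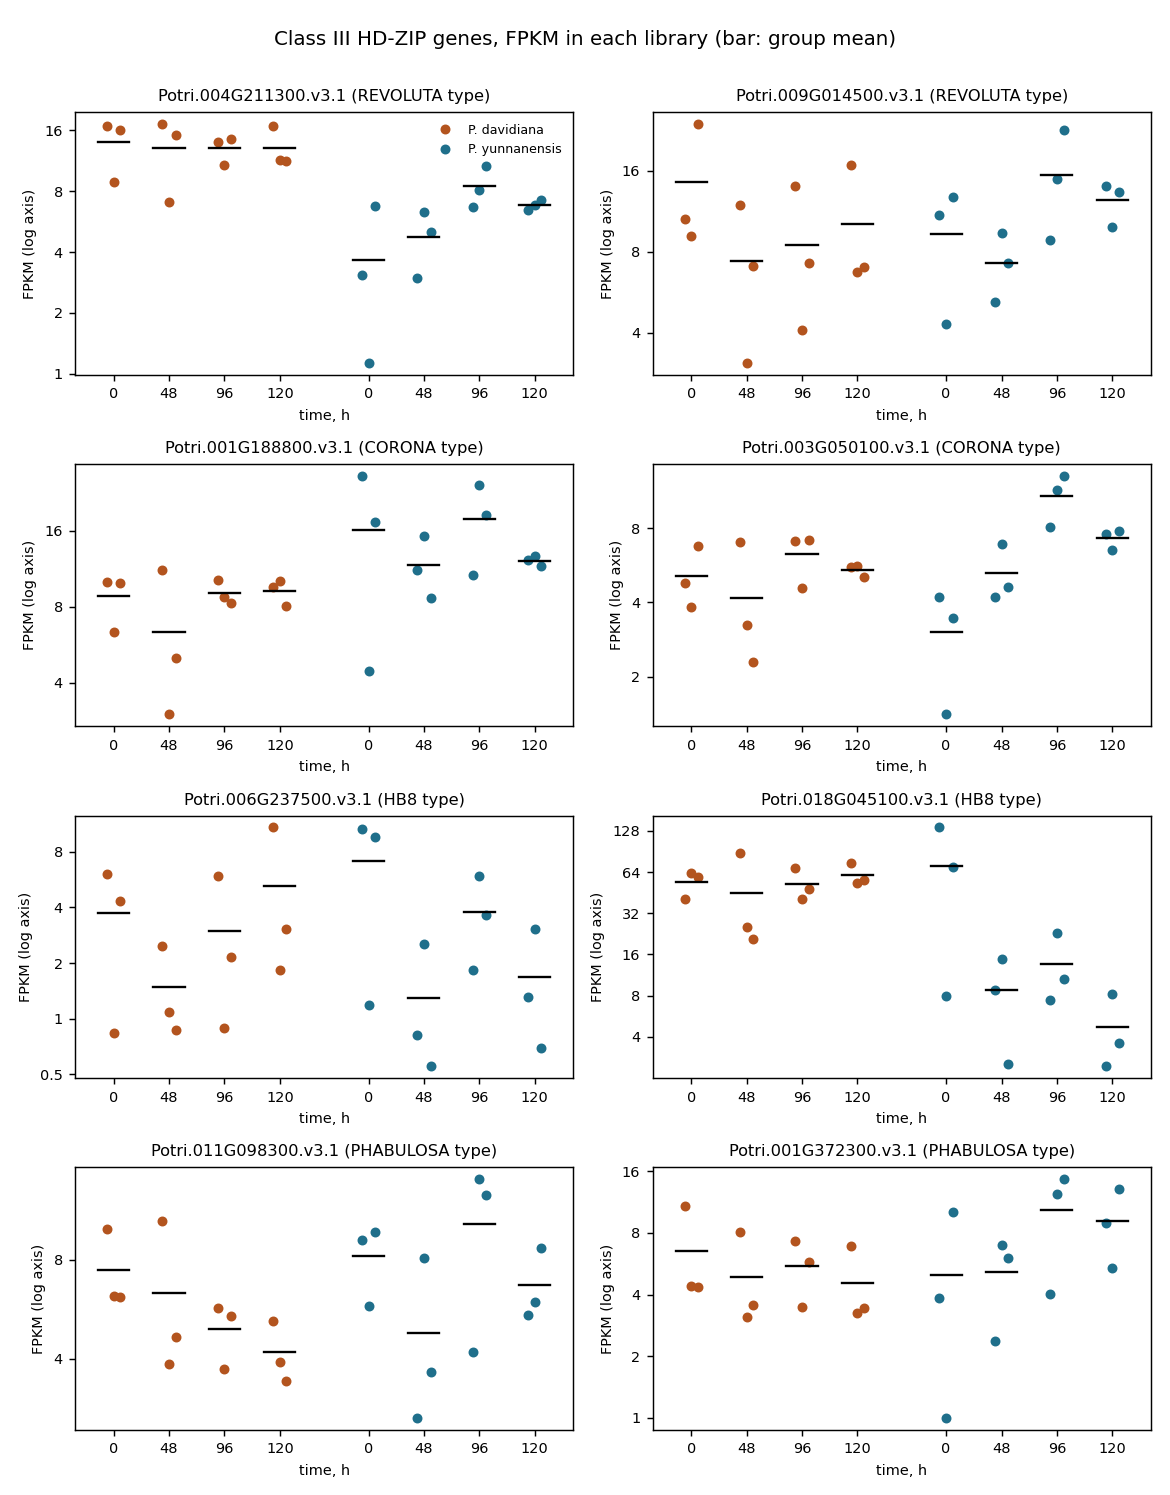
FPKM of each of the 8 class III HD-ZIP genes in the 24 libraries, by species and time; points are libraries and bars group means, on a log axis, with P. davidiana left of P. yunnanensis. The HB8 gene Potri.018G045100.v3.1 lies between 20.7 and 88.8 FPKM in P. davidiana, and between 2.45 and 23.0 FPKM in P. yunnanensis after 0 h.

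The 12 P. davidiana libraries of Potri.018G045100.v3.1, the more abundant HB8 gene, had 40.9, 62.9 and 58.8 FPKM at 0 h, 88.8, 25.3 and 20.7 FPKM at 48 h, 68.4, 40.5 and 48.5 FPKM at 96 h, and 74.4, 53.4 and 56.3 FPKM at 120 h. The 12 P. yunnanensis libraries had 136, 7.91 and 69.5 FPKM at 0 h, 8.81, 14.9 and 2.51 FPKM at 48 h, 7.47, 23.0 and 10.6 FPKM at 96 h, and 2.45, 8.22 and 3.58 FPKM at 120 h. The species overlapped at 0 h and were fully apart at each later time, with every P. davidiana library above every P. yunnanensis library. Over the 9 libraries after 0 h the mean was 52.9 ± 22.3 FPKM in P. davidiana and 9.06 ± 6.63 FPKM in P. yunnanensis (SD).

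In P. yunnanensis, Potri.018G045100.v3.1 had a lower mean at each later time than at 0 h. The mean with its SD over 3 libraries was 8.73 ± 6.18 FPKM at 48 h, against 71.0 ± 63.8 FPKM at 0 h. The log2 change was -2.43 with a standard error (SE) of 0.74 and a limma adjusted p of 0.0313. At 120 h it averaged 4.75 ± 3.06 FPKM, a log2 change from 0 h of -3.07 (SE 0.74, limma adjusted p = 0.00388). At 96 h the mean was 13.7 ± 8.23 FPKM, and the log2 change of -1.73 missed the threshold (limma adjusted p = 0.0882), though it passed after median ratio scaling (-2.11, 0.0439). The groups overlapped with 0 h in all 3 comparisons because of 0 h replicate 2. Without that library the log2 changes were -3.58, -2.88 and -4.22 at 48, 96 and 120 h, with limma adjusted p of 0.000606, 0.00288 and 8.8e-05. The call at 48 h was lost without 0 h replicate 1 (adjusted p = 0.162), 0 h replicate 3 (0.0994) or 48 h replicate 3 (0.166), and both calls were lost when limma was fitted to the compared groups alone (0.326 at 48 h and 0.0969 at 120 h).

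In P. davidiana the same gene gave log2 changes from 0 h of -0.55 at 48 h, -0.06 at 96 h and 0.18 at 120 h, none past the threshold (limma adjusted p of 0.828, 1.00 and 0.943). The change at 120 h in P. davidiana less that in P. yunnanensis was 3.25 on the log2 scale (SE 1.05, 95% interval 1.06 to 5.44, limma adjusted p = 0.0425). That test of the difference in time course was lost in 14 of 21 alternatives, with adjusted p from 0.00191 to 0.117. It was smallest, 2.44, without P. yunnanensis 0 h replicate 1 and largest, 4.40, without P. yunnanensis 0 h replicate 2. The same difference was 1.88 at 48 h (adjusted p = 0.437) and 1.67 at 96 h (0.326), neither past the threshold with all libraries; at 96 h it passed without P. yunnanensis 0 h replicate 2 (2.82, adjusted p = 0.0369).

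Between the species, Potri.018G045100.v3.1 was not called at 0 h, where the difference of P. davidiana minus P. yunnanensis was 0.30 on the log2 scale with a 95% interval of -1.25 to 1.85. At 120 h the means with their SD were 61.3 ± 11.4 FPKM in P. davidiana and 4.75 ± 3.06 FPKM in P. yunnanensis, and the log2 difference 3.55 (SE 0.74, limma adjusted p = 0.00063). This call held in 15 of 15 alternatives, with differences from 3.25 to 3.96. At 48 h the means were 44.9 ± 38.1 FPKM in P. davidiana and 8.73 ± 6.18 FPKM in P. yunnanensis, a log2 difference of 2.18 (SE 0.74, adjusted p = 0.0234). At 96 h they were 52.5 ± 14.4 FPKM in P. davidiana and 13.7 ± 8.23 FPKM in P. yunnanensis, a log2 difference of 1.97 (SE 0.74, adjusted p = 0.0358). The 48 h call was lost without P. davidiana 48 h replicate 1 (1.55, adjusted p = 0.134) or P. yunnanensis 48 h replicate 3 (1.57, 0.130). The 96 h call was lost in 8 of 15 alternatives, among them leaving out any of the 3 P. davidiana 96 h libraries or replicate 1 or 3 of P. yunnanensis 96 h, with adjusted p up to 0.121.

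**Figure D2:**
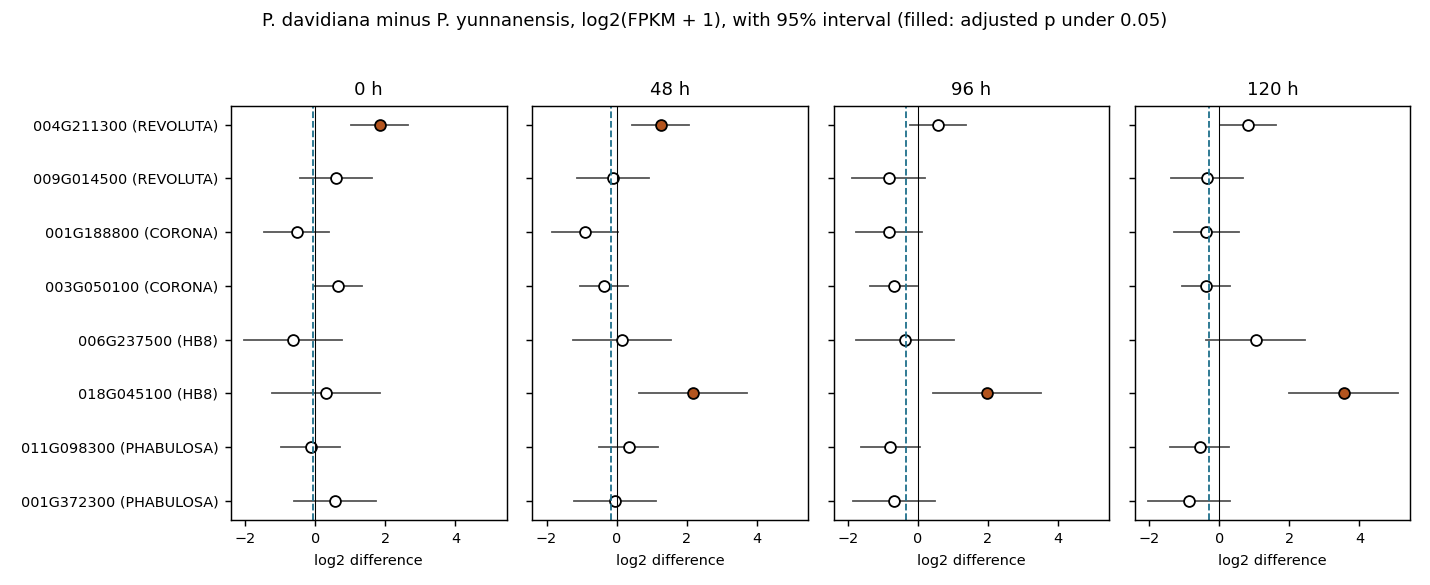
Log2 difference, P. davidiana minus P. yunnanensis, of each of the 8 genes at each time; horizontal lines are 95% intervals from limma, filled points have an adjusted p under 0.05 and the dashed line is the median of all tested genes. Filled points are Potri.004G211300.v3.1 at 0 and 48 h and Potri.018G045100.v3.1 at 48, 96 and 120 h.

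The HB8 partner Potri.006G237500.v3.1 was low and variable, and reached 1 FPKM in 18 of 24 libraries. In P. davidiana its range was 0.839 to 10.8 FPKM (median 2.31), and in P. yunnanensis 0.554 to 10.6 FPKM (median 2.19). At 0 h its 3 P. yunnanensis libraries had 10.6, 1.19 and 9.56 FPKM, so replicate 2 was again far below the other two. The log2 change in P. yunnanensis was -1.58 at 48 h and -1.36 at 120 h, both short of the threshold (limma adjusted p of 0.121 and 0.120). Without 0 h replicate 2 they were -2.36 and -2.14, with an adjusted p of 0.0199 in both. The HB8 genes are a close pair, and no source used here gives how fragments shared between them were counted. With the FPKM of the pair summed, the P. yunnanensis changes were -2.41 at 48 h and -2.86 at 120 h (limma adjusted p of 0.0319 and 0.00585). The summed species difference was 2.05 at 48 h (0.0311), 1.71 at 96 h (0.0649) and 3.30 at 120 h (0.00115), so the 96 h call was lost in the sum. The difference in time course at 120 h was 3.05 in the sum, and its call was lost too (0.0545).

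Potri.004G211300.v3.1, of the REVOLUTA type, was higher in P. davidiana at 0 and 48 h. The P. davidiana libraries had 16.8, 8.92 and 16.1 FPKM at 0 h, 17.2, 7.07 and 15.1 FPKM at 48 h, 13.9, 10.8 and 14.5 FPKM at 96 h, and 16.8, 11.4 and 11.3 FPKM at 120 h. The P. yunnanensis libraries had 3.07, 1.14 and 6.73 FPKM at 0 h, 2.99, 6.31 and 5.01 FPKM at 48 h, 6.71, 8.11 and 10.7 FPKM at 96 h, and 6.49, 6.87 and 7.24 FPKM at 120 h. Every P. davidiana library was above every P. yunnanensis library of the same time at each of the 4 times. Ordered by mean, the 4 P. davidiana groups came first (13.1 to 14.0 FPKM) and overlapped one another. They were followed by P. yunnanensis at 96, 120, 48 and 0 h, with neighbours apart at P. davidiana 96 h against P. yunnanensis 96 h and at 120 h against 48 h within P. yunnanensis.

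The log2 difference of P. davidiana minus P. yunnanensis for Potri.004G211300.v3.1 was 1.83 at 0 h (SE 0.38, limma adjusted p = 0.000723), where means were 14.0 ± 4.38 FPKM in P. davidiana and 3.64 ± 2.84 FPKM in P. yunnanensis (SD, n = 3 each). It was 1.25 at 48 h (SE 0.38, adjusted p = 0.0129), with 13.1 ± 5.34 FPKM in P. davidiana and 4.77 ± 1.67 FPKM in P. yunnanensis. At 96 and 120 h it was 0.58 and 0.83, short of the threshold (adjusted p of 0.226 and 0.0842), but past it after median ratio scaling (0.82 and 1.02, adjusted p of 0.0435 and 0.0131). The 48 h call was lost without P. davidiana 48 h replicate 1 (adjusted p = 0.0657), P. davidiana 48 h replicate 3 (0.0508) or P. yunnanensis 48 h replicate 1 (0.0655). The 0 h call held without P. yunnanensis 0 h replicate 2 (1.37, adjusted p = 0.00562) and was lost when limma was fitted to those groups alone (0.0502). With the pair summed the differences were 1.16 (adjusted p = 0.0338), 0.65 (0.235), -0.12 (0.835) and 0.21 (0.709) at 0, 48, 96 and 120 h, so the summed pair was called at 0 h alone.

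Within P. yunnanensis, Potri.004G211300.v3.1 averaged 8.49 ± 2.00 FPKM at 96 h, against 3.64 ± 2.84 FPKM at 0 h, a log2 rise of 1.20 (SE 0.38, limma adjusted p = 0.0254). At 120 h the mean was 6.87 ± 0.377 FPKM and the log2 change of 0.95 missed the threshold (adjusted p = 0.0587). The 96 h call was lost in 8 of 15 alternatives. Without 0 h replicate 2 the change was 0.74 (adjusted p = 0.160), and it was also lost without 0 h replicate 1 (0.0514), 96 h replicate 2 (0.0564) or 96 h replicate 3 (0.102). At 120 h the change was 0.49 without 0 h replicate 2 (adjusted p = 0.328), and it passed without 0 h replicate 3 (1.41, 0.00637). In P. davidiana the 4 group means of this gene spanned 13.1 to 14.0 FPKM. The change in P. davidiana less that in P. yunnanensis was -1.25 at 96 h and -1.01 at 120 h (limma adjusted p of 0.148 and 0.213), each past the threshold in 1 of 21 alternatives, without P. yunnanensis 0 h replicate 3 (-1.71 and -1.47, 0.0285 and 0.0443). Without replicate 2 of that group they were -0.79 and -0.54 (adjusted p of 0.331 and 0.472).

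Its REVOLUTA partner Potri.009G014500.v3.1 was called in none of the 13 comparisons. Its range was 3.098 to 23.8 FPKM in P. davidiana (median 8.22) and 4.33 to 22.6 FPKM in P. yunnanensis (median 10.4), and the species overlapped at every time. The ratio within the REVOLUTA pair was higher in P. davidiana at each time all the same, though no test was run on it. Potri.004G211300.v3.1 was the higher of the pair in 8 of 12 P. davidiana libraries and in 0 of 12 P. yunnanensis libraries. The ratio of Potri.004G211300.v3.1 to Potri.009G014500.v3.1 ran from 0.677 to 2.64 in P. davidiana (median 1.60) and from 0.262 to 0.761 in P. yunnanensis (median 0.543). At each of the 4 times the ratios of the species did not overlap, for example 1.00 to 1.69 in P. davidiana and 0.462 to 0.696 in P. yunnanensis at 120 h. A difference between the species in how well fragments of either gene align to the P. trichocarpa models was not tested.

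**Figure D3:**
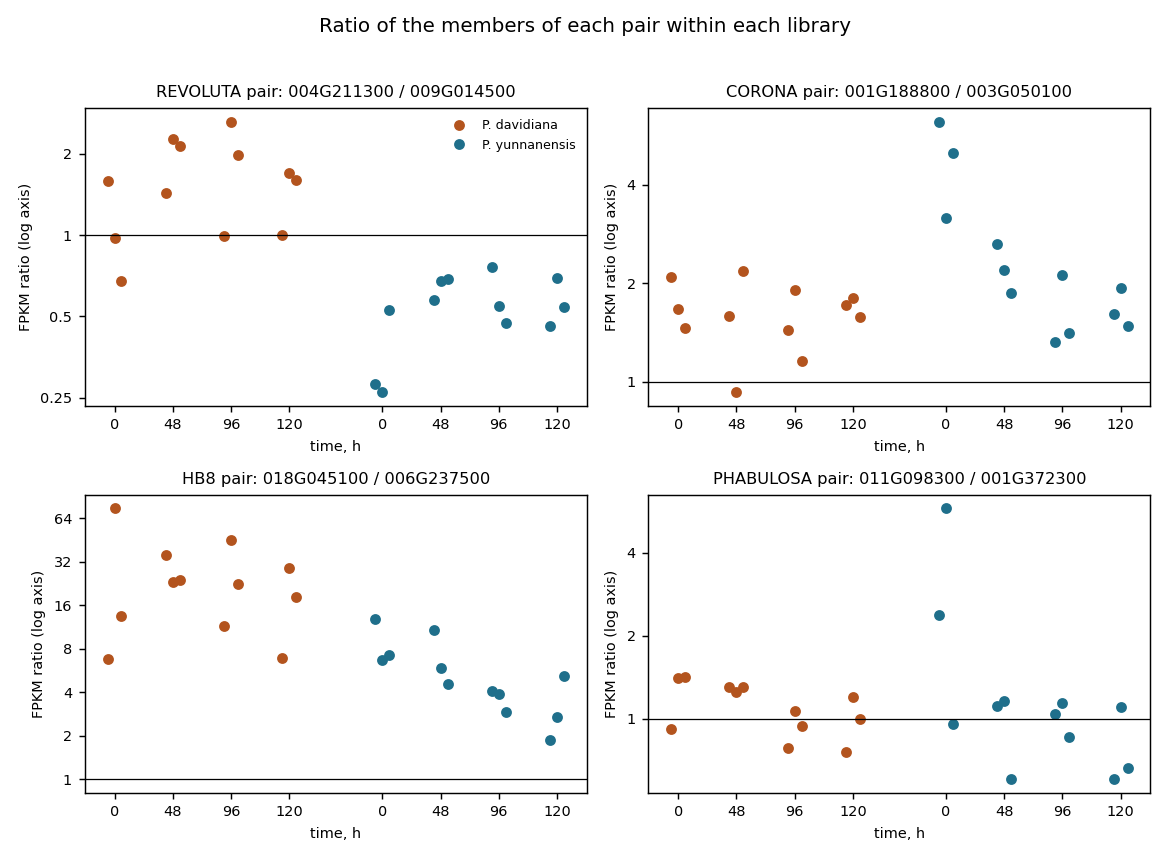
Ratio of one gene of each pair to the other in every library, on a log axis, by species and time, with P. davidiana left of P. yunnanensis. In the REVOLUTA pair the P. yunnanensis ratios all lie below 1 (0.262 to 0.761), and in the HB8 pair all 24 ratios lie above 1.

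The HB8 and CORONA pairs kept their order in 11 or 12 of 12 libraries of each species, and the PHABULOSA pair did not. In the HB8 pair, Potri.018G045100.v3.1 was the higher gene in 12 of 12 libraries of each species, by a median of 22.9-fold in P. davidiana and 4.84-fold in P. yunnanensis. In the CORONA pair, Potri.001G188800.v3.1 was the higher in 11 of 12 P. davidiana libraries and 12 of 12 P. yunnanensis libraries. The PHABULOSA genes were close to each other, with Potri.011G098300.v3.1 the higher in 7 of 12 libraries of each species. Ratios apart between the species were not particular to the REVOLUTA pair. They were also apart in the HB8 pair at 48, 96 and 120 h (6.87 to 29.2 in P. davidiana and 1.88 to 5.14 in P. yunnanensis at 120 h). The same held for the CORONA pair at 0 h and the PHABULOSA pair at 48 h. The share among other pairs of genes was not computed.

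In the CORONA pair, Potri.003G050100.v3.1 was higher at 96 and 120 h than at 0 h in P. yunnanensis, with its highest mean at 96 h. Its P. yunnanensis libraries had 4.22, 1.41 and 3.45 FPKM at 0 h, 4.21, 6.92 and 4.64 FPKM at 48 h, 8.05, 11.4 and 13.0 FPKM at 96 h, and 7.61, 6.55 and 7.83 FPKM at 120 h. The libraries at 96 and 120 h were all above those at 0 h. Those at 96 h were also all above those at 120 h, a step that was not tested. The mean with its SD was 10.8 ± 2.55 FPKM at 96 h, against 3.02 ± 1.45 FPKM at 0 h, and the log2 change 1.61 (SE 0.33, limma adjusted p = 0.00146). At 120 h it was 7.33 ± 0.684 FPKM, a log2 change from 0 h of 1.12 (SE 0.33, adjusted p = 0.0122), while the change of 0.69 at 48 h missed the threshold (0.171). Without 0 h replicate 2 the change was 1.27 at 96 h (adjusted p = 0.0105) and 0.79 at 120 h, where the call was lost (0.0772). The 120 h call was also lost after median ratio scaling (0.74, adjusted p = 0.0648). Both calls were lost with only the compared groups in the fit (0.0662 at 96 h and 0.102 at 120 h) and with the CORONA pair summed (0.77, adjusted p = 0.173, and 0.29, 0.616).

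In P. davidiana, Potri.003G050100.v3.1 had 4.80, 3.82 and 6.80 FPKM at 0 h, 7.02, 3.23 and 2.30 FPKM at 48 h, 7.09, 4.59 and 7.18 FPKM at 96 h, and 5.55, 5.60 and 5.08 FPKM at 120 h. All 3 later groups overlapped with 0 h. The change at 96 h in P. davidiana less that in P. yunnanensis was -1.35 on the log2 scale (SE 0.46), short of the threshold (limma adjusted p = 0.0704), and it passed without P. yunnanensis 0 h replicate 1 (-1.58, 0.0497). Without replicate 2 of that group it was -1.02 (adjusted p = 0.151). At 96 and 120 h every P. davidiana library of this gene was below every P. yunnanensis library, with log2 differences of -0.70 and -0.37 that missed the threshold (adjusted p of 0.0879 and 0.363). The 96 h difference passed in 1 of 15 alternatives (limma adjusted p = 0.0368). At 0 h the difference was 0.66 (adjusted p = 0.117), and it passed after quantile normalization (0.93, 0.00895). Without P. yunnanensis 0 h replicate 2 it was 0.32 (adjusted p = 0.464). The difference at 120 h was 0.10 after quantile normalization, so its direction turned with the scaling.

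The more abundant CORONA gene, Potri.001G188800.v3.1, was called in no comparison. P. davidiana libraries had 10.04, 6.39 and 9.96 FPKM at 0 h, 11.1, 3.00 and 4.996 FPKM at 48 h, 10.2, 8.76 and 8.30 FPKM at 96 h, and 9.57, 10.1 and 8.03 FPKM at 120 h. P. yunnanensis libraries had 26.3, 4.46 and 17.2 FPKM at 0 h, 11.1, 15.2 and 8.70 FPKM at 48 h, 10.7, 24.2 and 18.4 FPKM at 96 h, and 12.3, 12.7 and 11.6 FPKM at 120 h. The species did not overlap at 96 and 120 h, with P. davidiana lower. The log2 differences of P. davidiana minus P. yunnanensis were -0.54, -0.90, -0.83 and -0.37 at 0, 48, 96 and 120 h (limma adjusted p of 0.359, 0.112, 0.136 and 0.520). Leaving out P. yunnanensis 0 h replicate 2 brought the 0 h difference to -1.21 (adjusted p = 0.0138), and leaving out P. davidiana 48 h replicate 1 brought the 48 h difference to -1.34 (0.0285). The 96 h difference passed in 1 of 15 alternatives (limma adjusted p = 0.0443).

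No PHABULOSA gene was called in any of the 13 comparisons. Potri.011G098300.v3.1 had 9.91, 6.19 and 6.16 FPKM at 0 h, 10.5, 3.86 and 4.65 FPKM at 48 h, 5.71, 3.72 and 5.41 FPKM at 96 h, and 5.23, 3.92 and 3.43 FPKM at 120 h in P. davidiana. Its 96 and 120 h libraries there were all below those of 0 h, with log2 changes of -0.49 and -0.68 (limma adjusted p of 0.497 and 0.264). In P. yunnanensis it had 9.21, 5.80 and 9.69 FPKM at 0 h, 2.65, 8.09 and 3.65 FPKM at 48 h, 4.19, 14.1 and 12.6 FPKM at 96 h, and 5.43, 5.97 and 8.66 FPKM at 120 h. The species differences of this gene were -0.80 at 96 h (adjusted p = 0.115) and -0.56 at 120 h (0.271). The 96 h difference passed without P. yunnanensis 96 h replicate 1 (-1.28, adjusted p = 0.0133). The libraries of the species were apart at 120 h only.

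Its partner Potri.001G372300.v3.1 covered 3.095 to 10.8 FPKM in P. davidiana, and 1.00 to 14.6 FPKM in P. yunnanensis. At 0 h its P. yunnanensis libraries had 3.86, 1.00 and 10.1 FPKM, a wide spread, and the log2 changes from 0 h were 1.09 at 96 h and 1.02 at 120 h (limma adjusted p of 0.152 and 0.164). Without 0 h replicate 3, the highest of that group, they were 1.70 and 1.63 (adjusted p of 0.0286 and 0.0292). Without 0 h replicate 2, the lowest, they were 0.46 and 0.39 (adjusted p of 0.593 and 0.628).

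**Figure D4:**
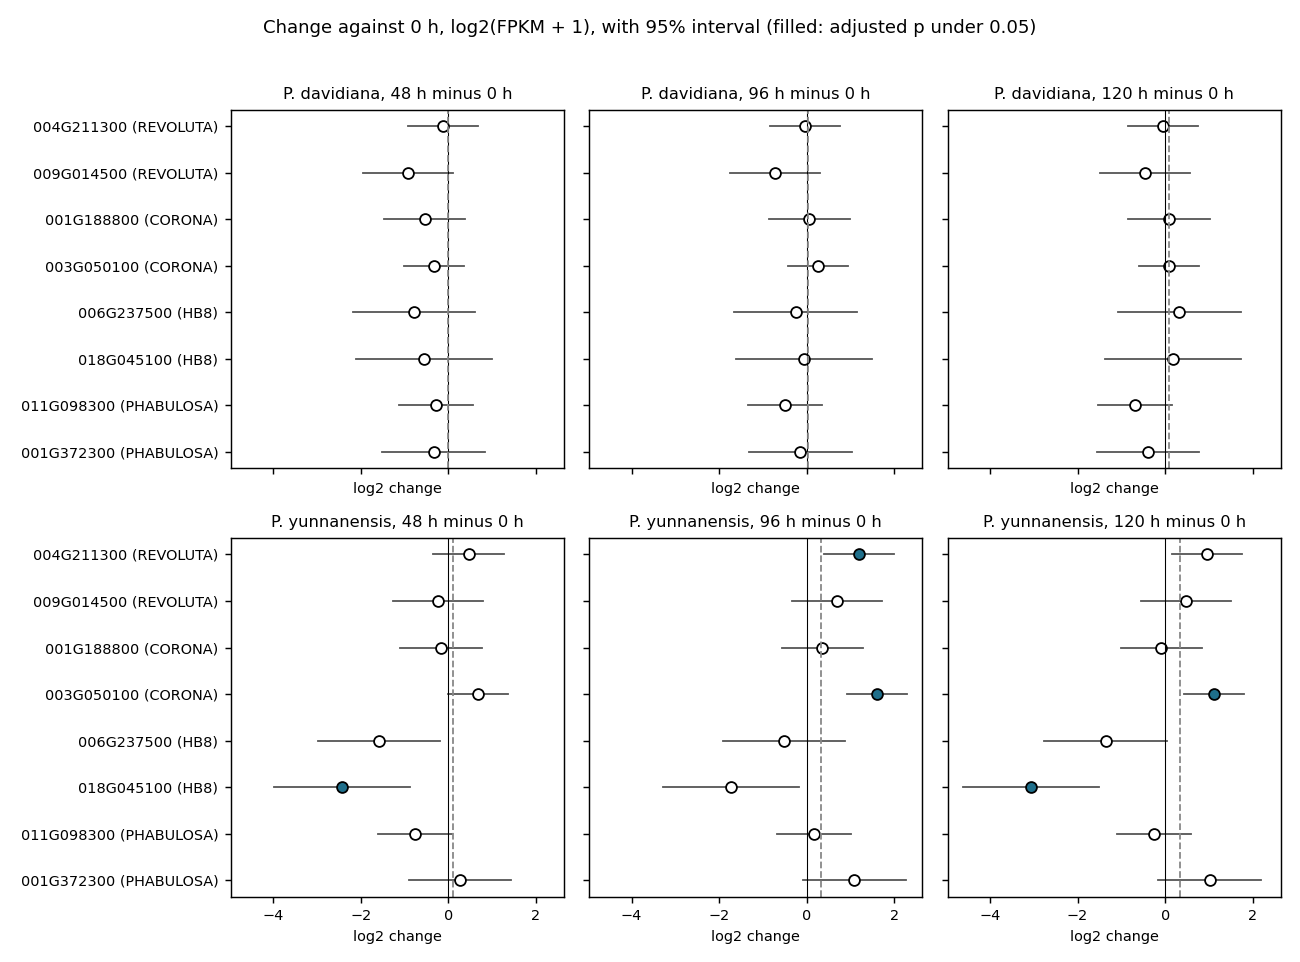
Log2 change from 0 h of each of the 8 genes in P. davidiana and in P. yunnanensis; horizontal lines are 95% intervals from limma, filled points have an adjusted p under 0.05 and the dashed line is the median of all tested genes. Filled points are in P. yunnanensis alone: Potri.018G045100.v3.1 lower at 48 and 120 h, Potri.003G050100.v3.1 higher at 96 and 120 h and Potri.004G211300.v3.1 higher at 96 h.

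Counted over the family, at most 2 of 8 genes were called in any comparison, so each count is read beside the share called among all tested genes. In P. davidiana 0 of 8 genes were called by limma against 0 h at 48, 96 or 120 h, where 3.93%, 14.9% and 19.8% of all tested genes were, and 0 of 8 had an unadjusted p under 0.05 at any of these times. At 48 h all 8 P. davidiana changes were below 0, with a median of -0.44 against 0.0032 for all tested genes. Of all tested genes 50.3% were above 0 there. The 8 genes share these libraries and correlate within groups, so their directions are not independent. In P. yunnanensis 1 of 8 was called at 48 h, lower (all tested genes: 6.49% lower, 15.6% in either direction). At 96 h 2 of 8 were called higher and 0 lower (21.3% and 6.12% of all tested genes, 27.4% together). At 120 h 1 was called higher and 1 lower (27.6% and 8.47%, 36.1% together). The median log2 change of the 8 genes in P. yunnanensis was -0.20, 0.52 and 0.20 at 48, 96 and 120 h, beside 0.10, 0.33 and 0.34 for all tested genes. In P. yunnanensis 3 of 8 had an unadjusted p under 0.05 at each of these times. Every called gene passes that level too, so at least 15.6%, 27.4% and 36.1% of all tested genes passed it there. The exact shares at the unadjusted level were not computed for either species, so these counts are not read as a result about the family. Median ratio scaling moved the median of all tested genes at 120 h to -0.012, and each change there is to be read against that median. Against 0 h, groups did not overlap for 1 of 8 genes at 96 h and 1 at 120 h in P. davidiana (35.1% and 40.5% of all tested genes), and for 1 and 1 in P. yunnanensis (36.9% and 40%). The P. yunnanensis comparisons share their 0 h libraries, as do those of P. davidiana.

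Between the species, 1 of 8 genes was called at 0 h, 2 at 48 h, 1 at 96 h and 1 at 120 h, each of them higher in P. davidiana. Among all tested genes 19%, 17.3%, 13.9% and 15.9% were called higher in P. davidiana at these times, and 41.4%, 41.9%, 45.8% and 46.9% in either direction. None of the 8 was called lower in P. davidiana, where 22.4%, 24.7%, 31.9% and 31% of all tested genes were. Species groups did not overlap for 1, 2, 4 and 5 of the 8 genes at 0, 48, 96 and 120 h, against 44.3%, 48.7%, 58.9% and 59.7% of all tested genes. Differences in time course were called by limma for 0 of 8 genes at 48 h and at 96 h and for 1 at 120 h, with P. davidiana the higher, where 1.9%, 9.09% and 14.9% of all tested genes were called and 5.78% with P. davidiana the higher at 120 h. At an unadjusted p under 0.05 there were 1 gene at 48 h, 2 at 96 h and 2 at 120 h. The share of all tested genes at that level was not computed, and is at least the share called.

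Within groups, the values of the 8 genes correlated from library to library. With group means subtracted, Pearson's r of log2(FPKM + 1) over the 24 libraries was above 0 in 28 of 28 pairs of members, from 0.454 to 0.866 with a median of 0.686. With only the species means subtracted it ran from -0.020 to 0.850, lowest between Potri.004G211300.v3.1 and Potri.018G045100.v3.1. These points share a library and its scaling. With group means subtracted, the r of other pairs of tested genes was not computed, so whether those values are particular to the family was not tested. With species means subtracted, each member was compared with all other tested genes, and ranks are given with the most alike genes below. P. yunnanensis 0 h replicate 2 lay below its group mean by a median of -1.09 over the 8 genes, against -0.19 over all tested genes. P. davidiana 48 h replicate 1 was the highest of its group for 8 of 8 genes (39.2% of all tested genes), with a median deviation of 0.74 against 0.0061. P. yunnanensis 48 h replicate 2 was the highest for 8 of 8 (42.3%) and P. yunnanensis 96 h replicate 1 the lowest for 8 of 8 (49.4%). P. yunnanensis at 120 h showed no such shift. Its replicates 1, 2 and 3 were the lowest for 3, 3 and 2 of the 8 genes, with median deviations of -0.031, -0.058 and 0.078. Whether the cell types of these stem pieces differed was not tested, since xylem, phloem and cambium markers could not be matched to identifiers and were not analysed here.

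**Figure D5:**
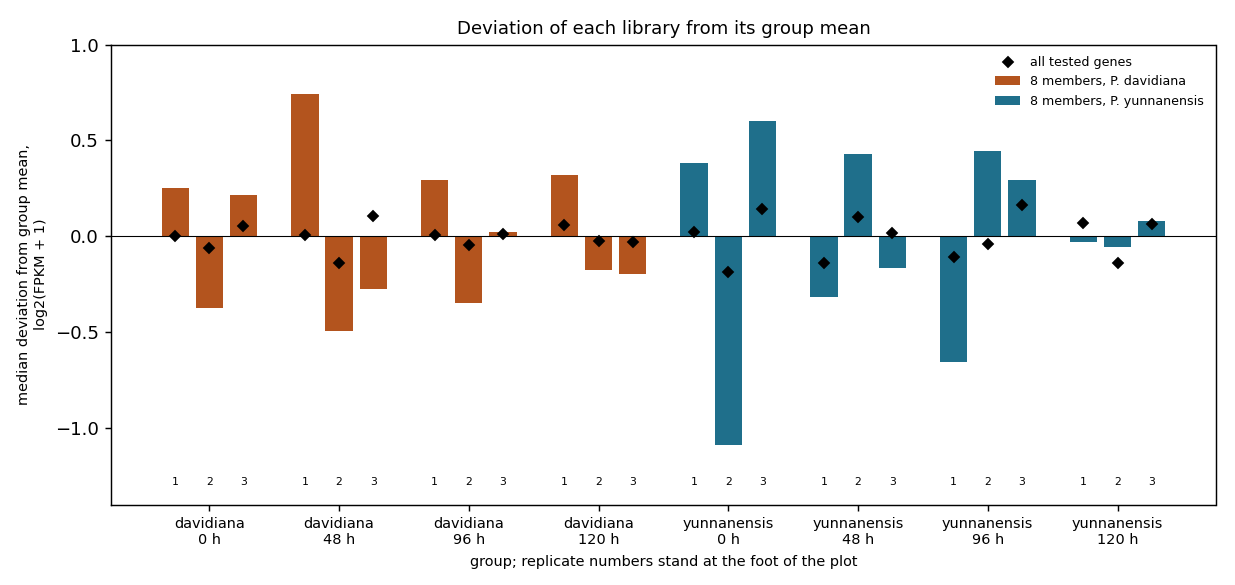
Median deviation of each library from its group mean on the log2(FPKM + 1) scale, over the 8 genes (bars) and over all tested genes (diamonds), by group and replicate. The deepest bar is P. yunnanensis 0 h replicate 2 (-1.09, against -0.19 for all tested genes) and the highest P. davidiana 48 h replicate 1 (0.74, against 0.0061).

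The gene most like each member over the 24 libraries, by Pearson's r after the species means were subtracted, was in no case another of the 8. Potri.018G045100.v3.1 was most like Potri.005G087500.v3.1 (r = 0.917), and its HB8 partner Potri.006G237500.v3.1 most like Potri.003G032800.v3.1 (r = 0.879). The REVOLUTA genes Potri.004G211300.v3.1 and Potri.009G014500.v3.1 were most like Potri.018G054100.v3.1 (r = 0.943) and Potri.012G001100.v3.1 (r = 0.879) in that order. Of the CORONA genes, Potri.001G188800.v3.1 was most like Potri.005G210200.v3.1 (r = 0.914) and Potri.003G050100.v3.1 most like Potri.002G144700.v3.1 (r = 0.881). Of the PHABULOSA genes, Potri.011G098300.v3.1 was most like Potri.T050800.v3.1 (r = 0.874) and Potri.001G372300.v3.1 most like Potri.013G060900.v3.1 (r = 0.914). Within the family the closest likeness was between Potri.004G211300.v3.1 and Potri.001G372300.v3.1, of different types (r = 0.850). Each r with a gene outside the 8 is the highest of 24642 compared and describes these libraries.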

How the data were processed

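Stem RNA of cuttings was sequenced on an Illumina platform, per the labels' protocols. The authors deposited 1 FPKM value per gene and library, per the file headers. Aligner, counter and genome build: not given in the sources used here. Identifiers ending in v3.1 have the form of P. trichocarpa gene models. FPKM moves with every abundant gene and with how well fragments align. Titles gave the groups.

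A test was made for the 24643 of 43836 genes that reached 1 FPKM in 3 or more libraries. The limma package (3.58.1, under R 4.3.3) was fitted to log2(FPKM + 1) with a variance trend, 1 mean for each of 8 groups and 16 residual degrees of freedom. Benjamini-Hochberg adjustment ran over all tested genes in each of 13 comparisons, with calls at an adjusted p under 0.05. This log2 scale understates the change of low genes. A species difference is P. davidiana less P. yunnanensis. The fit was tested on simulated data. Depth was computed in Python 3.11.15 from low values (0.03 to 0.3 FPKM). It is the most frequent ratio of those of P. yunnanensis 96 h replicate 1 to those of the library.

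The genes and lists were chosen with earlier results of these data known. All 8 are named, and for each the 1 gene most like it. Lists of the microRNA, LITTLE ZIPPER, xylem, phloem and cambium genes, chosen by product name, had no matching names in the table and were not analysed here. Replicate numbers recur across groups. Deviations of same-numbered libraries correlated above 0.1 for all 3 numbers in 1 of 10 comparisons, P. davidiana 48 h against 0 h (0.297, 0.287 and 0.256), and no source says what a number marks. Alternatives were a pseudocount of 0.1, no filter, median ratio scaling, quantile normalization, a spread weighted by group, the compared groups alone, a replicate block, the pair summed and each library left out. A block within each species was added after seeing the data.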

Additional observations from a re-analysis of the deposited data

Results flagged for a closer look

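The P. davidiana change from 0 h minus the P. yunnanensis change from 0 h of the HB8 gene Potri.018G045100.v3.1 was 3.25 on the log2 scale at 120 h (SE 1.05, limma adjusted p = 0.0425), a difference between the species in time course that passed its own test. In P. davidiana the gene averaged 61.3 ± 11.4 FPKM at 120 h, against 54.2 ± 11.7 FPKM at 0 h, and in P. yunnanensis 4.75 ± 3.06 FPKM at 120 h, against 71.0 ± 63.8 FPKM at 0 h (SD, n = 3 each). Without P. yunnanensis 0 h replicate 2, which had 7.91 FPKM, the difference was 4.40 (adjusted p = 0.00191). Without P. yunnanensis 0 h replicate 1, which had 136 FPKM, it was 2.44 (adjusted p = 0.117). The call was lost in 14 of 21 alternatives, among them the HB8 pair summed (3.05, limma adjusted p = 0.0545).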

How the results depend on the processing

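For single genes, 457 of 540 alternative values over 34 results kept their direction and their side of the threshold, 49 lost a call, 31 gained one and 3 reversed. The reversals were Potri.003G050100.v3.1 between species at 0 h with the CORONA pair summed (-0.19) and at 120 h after quantile normalization (0.10), and Potri.004G211300.v3.1 at 96 h with the REVOLUTA pair summed (-0.12). For the number of genes called among the 8, 150 of 200 alternatives stayed within 1.5 times. For P. yunnanensis against 0 h, 0 genes were called at 48 h and 1 at 96 h with the spread weighted by group, the compared groups alone gave 0 at 48, 96 and 120 h, and median ratio scaling gave 1 at 120 h. Between species at 0 h, quantile normalization gave 2 and the compared groups alone 0. Between species at 96 h, no filter gave 0, median ratio scaling 2, quantile normalization 2, the weighted spread 3 and the replicate block within species 0. At 120 h, median ratio scaling, quantile normalization, the weighted spread, the compared groups alone and the block within species each gave 2. For the time course at 120 h, no filter, the compared groups alone and the block within species each gave 0. In P. yunnanensis, leaving out 1 library gave 0 to 2 genes (48 h), 1 to 3 (96 h) and 2 to 4 (120 h). Between species it gave 1 to 2 (0 h and 48 h), 0 to 1 (96 h) and 1 (120 h), and for the time course 0 to 1 at 96 h and at 120 h. The cause of these moves was not tested. With the replicate number as a block across species, Potri.004G211300.v3.1 at 120 h in P. yunnanensis passed (0.95, limma adjusted p = 0.0386). In P. davidiana at 48 h, where deviations of same-numbered libraries correlated above 0.1 for all 3 numbers, the block changed no call. The 3 replicates a group and the unknown read depth limit what can be seen in the lower genes, and no counting interval can be given.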
